A study of Mus musculus with 6 samples.

Results

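ARF and ARL proteins are small GTPases of vesicular traffic. This account follows the 26 genes listed for them and the 33 genes of their best-known regulators in the RNA sequencing dataset of 393P_ZEB1 and 393P_vector cells. Members were found by a rule on gene symbols. They were Arf1 to Arf6, all numbered Arl genes, the exchange factors Gbf1, Arfgef1, Arfgef2, Cyth1 to Cyth4, Iqsec1 to Iqsec3 and Psd to Psd4, and the GTPase-activating proteins of the ArfGAP, ACAP, AGAP, ASAP, ADAP, ARAP and GIT families. This gave 59 of the 24214 features counted. The largest changes were in the GTPase-activating proteins, where Arap3 was 12.1-fold higher and Adap1 was 13.2-fold lower in 393P_ZEB1 cells. None of the 6 ARF GTPases passed edgeR's test on all samples, by which 18.3% of all genes tested were higher and 19.3% lower.

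ARF GTPases switch between a GDP-bound form and a GTP-bound form that sits on membranes. Guanine nucleotide exchange factors (GEFs), which share a Sec7 domain, load GTP, and GTPase-activating proteins (GAPs) trigger its hydrolysis. In the GTP form, ARF proteins recruit coat proteins and adapters and activate lipid-modifying enzymes, chiefly at the Golgi and on endosomes, while ARF6 acts at the plasma membrane and in endocytic recycling. The ARF-like (ARL) proteins are more varied, with members known for roles at the trans-Golgi, on lysosomes, in cilia and in tubulin folding.

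The 393P line is an epithelial murine lung adenocarcinoma (LUAD) line. The labels give the strain as C57BL/6. Both groups were transfectants grown in RPMI-1640 medium with serum, 3 samples with a ZEB1 expression vector (393P_ZEB1) and 3 with the empty vector (393P_vector). The comparison therefore asks how ectopic ZEB1, a transcription factor that drives epithelial-to-mesenchymal transition, changed transcript levels. Whether the samples of a group came from separate transfections or clones is not given in the sources used here. The p-values set the difference between groups against the spread between these samples, which may be technical. The sources used here do not give the species of the ZEB1 cDNA or its promoter.

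Total counts per sample ranged from 54442450 to 79158012, and 3 counts, taken as the floor of detection, were worth 0.0361 CPM in the deepest sample and 0.0561 CPM in the shallowest (CPM stands for counts normalized to sequencing depth). Reads on Zeb1 were at 21.2, 22.0 and 21.4 CPM in 393P_vector replicates 1 to 3 and at 54.9, 48.9 and 51.3 CPM in 393P_ZEB1 replicates 1 to 3. The 6 epithelial markers were Cdh1, Epcam, Krt8, Krt18, Esrp1 and Cldn4, and all 6 fell. Their summed level was between 3690 and 4006 CPM in 393P_vector samples and between 1879 and 2000 CPM in 393P_ZEB1 samples. Most of that sum was Krt8 and Krt18, with log2 fold changes of -0.61 and -0.77. Those of Cdh1, Epcam, Esrp1 and Cldn4 were larger in size, at -4.09, -6.53, -7.75 and -8.40. The 6 mesenchymal markers were Vim, Fn1, Cdh2, Zeb1, Zeb2 and Twist1. Their sum was between 7615 and 8394 CPM in 393P_vector and between 10627 and 11911 CPM in 393P_ZEB1 samples, and all 6 rose. Zeb1 is the factor that was expressed ectopically, so its rise is not a separate marker result. The lung lineage markers Nkx2-1, Sftpc and Scgb1a1 were absent or near the floor, with at most 0.108 CPM in sum in any sample. In bulk RNA, fewer cells of a type and less RNA per cell cannot be told apart. Summed markers of leukocytes, endothelium and fibroblasts did not exceed 3.53 CPM in any sample. 393P_vector replicate 3 stood apart, as 8.80% and 9.69% of genes differed at least 2-fold from it in replicates 1 and 2. That share was 2.43% within the pair of replicates 1 and 2, and 3.17% to 3.49% among 393P_ZEB1 samples. 393P_vector replicate 3 lay outside the range of replicates 1 and 2 for 51 of the 53 members tested. This count was not made over all genes, so it shows nothing particular to the members. Whole chromosomes were also displaced between the lines. The median log2 fold change was 0.64 over genes of chromosome 18, 0.27 on chromosome 11, 0.25 on chromosome 16, -0.43 on chromosome 17 and -6.89 over the 6 tested genes of chromosome Y. Such differences between the lines and an effect of ZEB1 cannot be told apart in this design, so values with each chromosome scaled to its own genes are given beside several members.

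Of the 59 members, 53 had enough counts to be tested. In 393P_ZEB1 cells, 12 of them were higher and 8 were lower by edgeR's quasi-likelihood test, with p-values adjusted by the Benjamini-Hochberg method over 13892 genes and a threshold of 0.05. These are 22.6% and 15.1% of the members tested. Over all genes tested, 18.3% were higher and 19.3% were lower, so the number of calls was near that of the whole transcriptome. Levels of the 3 samples of each group did not overlap for 30 of the 53 members, 56.6%, against 52.8% of all genes. For these 30 the exact two-sided permutation test over samples gave p = 0.1, the smallest that 3 samples against 3 allow. The median log2 fold change was 0.02 over the members and -0.02 over all genes. Among the called members, 5 differed by at least 2-fold, and 4 of these were among the 19 GAPs tested. The 5 are 9.43% of the members tested, against 17.1% of all genes that were called and differed by at least 2-fold. The GAPs were not tested against that share.

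By role, calls are again those of edgeR on all samples. Among the GTPases, 0 of 6 ARF genes were called, and 4 of 16 tested ARL genes rose (25%) and 2 fell (12.5%). Of 12 tested exchange factors 3 rose and 3 fell (25% each), and of 19 GAPs 5 rose (26.3%) and 3 fell (15.8%). Over all genes tested 18.3% rose and 19.3% fell, and no role was tested against these shares. The counts depended on single samples. With each sample left out in turn, between 5 and 15 members were higher and between 3 and 12 were lower. Leaving out 393P_ZEB1 replicate 1, 2 or 3 left 5, 7 and 6 members higher and 3, 3 and 4 lower. Leaving out 393P_vector replicate 1, 2 or 3 gave 8, 9 and 15 higher and 4, 6 and 12 lower. Calls over all genes shifted as well, to 3700 higher and 3776 lower without 393P_vector replicate 3. Without 393P_ZEB1 replicate 1 they were 1872 and 1841, against 2539 and 2679 with all samples. The dependence on single samples was thus not particular to the members. For 7 of the 20 called members the call held in all 6 fits that left out a sample. Those 7 were Arl13b, Arl4c, Acap2, Adap1, Arap2, Arap3 and Asap1. This count was not made over all called genes, so it shows nothing particular to the members.

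**Figure D1:**
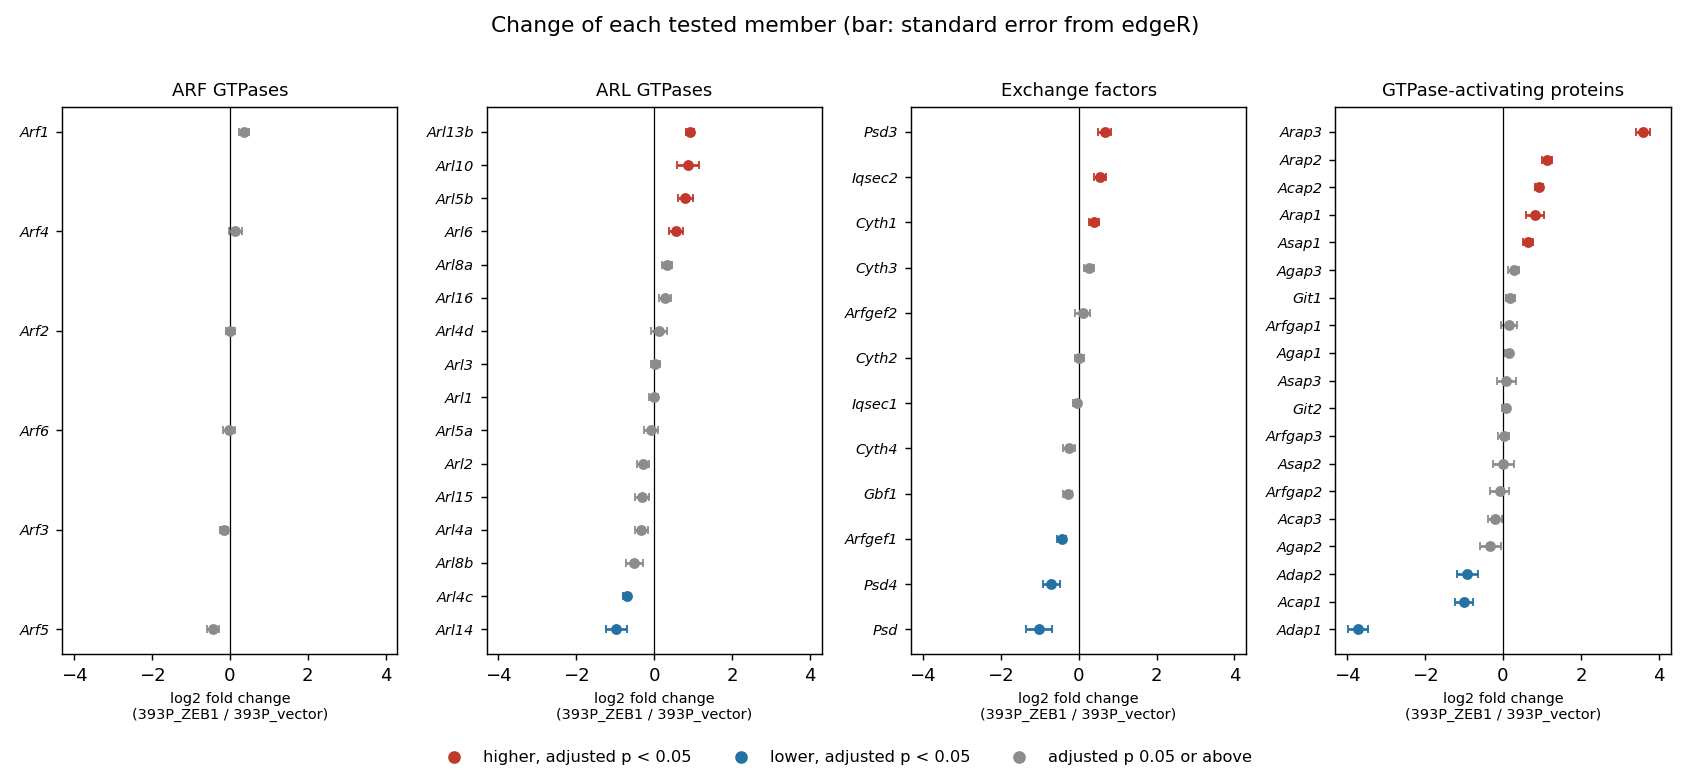
Log2 fold change of 393P_ZEB1 over 393P_vector (x axis) for each of the 53 tested members, in 4 panels by role, with bars for the standard error derived from the edgeR fit and colour for the call. The points of Arap3, at 3.59, and Adap1, at -3.73, lie far outside the rest, which sit between -1.02 and 1.13.

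To compare levels between genes, counts were scaled by exon length and by the TMM-normalized library size, giving RPKM values. On this scale the most abundant members, averaged over all 6 samples, were Arf4 at 123 RPKM, Arf1 at 92.7, the GAP Git1 at 75.0, Arf3 at 66.8 and Arl4c at 57.8. Git1, a scaffold that links PIX exchange factors with paxillin at adhesions, was at 74.4, 76.9 and 58.9 RPKM in 393P_vector replicates 1 to 3 and at 78.1, 78.3 and 83.6 RPKM in 393P_ZEB1 replicates 1 to 3. Its groups did not overlap, but the log2 fold change of 0.19 (95% confidence interval -0.10 to 0.48) did not pass the test and was -0.08 with chromosome scaling. Git2, its less abundant relative, had a log2 fold change of 0.07 (95% confidence interval -0.15 to 0.29). At the other end, 6 members had too few counts to be tested. Arl5c, Arl9, Arl11, Arl13a, Iqsec3 and Psd2 had at most 14 counts, or 0.229 CPM, in any sample.

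The ARF GTPases were abundant and none was called by edgeR on all samples, though the groups did not overlap for Arf1 and Arf5. The ARF GTPases fall into class I (Arf1, Arf2 and Arf3) and class II (Arf4 and Arf5), which act mainly at the Golgi, and class III (Arf6). Summed over Arf1 to Arf6, the level was 366, 372 and 375 RPKM in 393P_vector replicates 1 to 3 and 405, 393 and 371 RPKM in 393P_ZEB1 replicates 1 to 3. Taken by class, the shares of that sum overlapped between the groups. Class I took 47.1% ± 5.26 (SD, n = 3) in 393P_vector and 49.1% ± 4.32 (SD, n = 3) in 393P_ZEB1 samples. Class II took 41.1% ± 3.48 and 39.9% ± 3.82, and Arf6 took 11.8% ± 1.87 and 11.03% ± 0.804 (SD, n = 3 each). Within 393P_vector, replicate 3 had the lowest share of class I, 41.1%, and the highest of Arf6, 13.7%. In 393P_ZEB1 samples, replicate 1 had the lowest share of class I, 44.1%. Of the single genes, Arf5 had shares that did not overlap, 9.93%, 10.8% and 8.42% in 393P_vector and 5.61%, 6.92% and 8.10% in 393P_ZEB1 replicates 1 to 3.

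**Figure D2:**
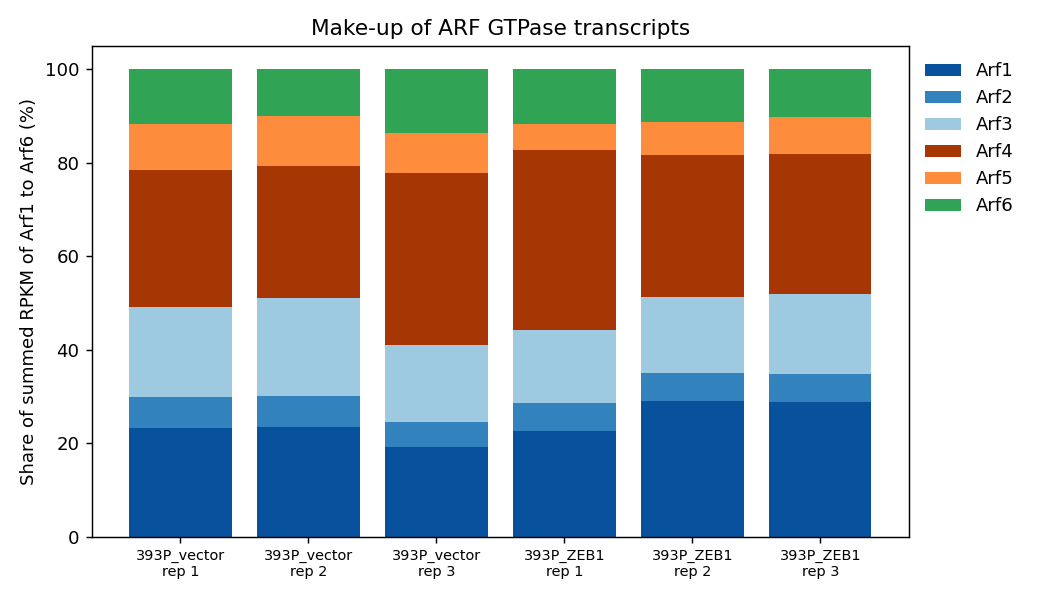
Stacked bars of the share of summed Arf1 to Arf6 RPKM (y axis, percent) taken by each gene in each of the 6 samples (x axis). Arf4 took between 28.2% and 38.7% and Arf1 between 19.2% and 28.9%, and the share of Arf5 is the smaller in each 393P_ZEB1 sample, at most 8.10% against at least 8.42%.

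Arf1, which recruits the COPI coat and clathrin adapters to the Golgi, had the largest increase among the ARF genes. It was at 84.9, 87.1 and 72.1 RPKM in 393P_vector replicates 1 to 3 and at 91.8, 114 and 107 RPKM in 393P_ZEB1 replicates 1 to 3. The groups did not overlap, yet the log2 fold change of 0.36 (SE 0.12) missed the threshold (edgeR adjusted p = 0.0579). Chromosome 11, where Arf1 lies, had a median of 0.27. Of the 50-base words in Arf1 transcripts 11.02% also occur in another gene model, so some of its reads may be shared. Arf5 was the ARF gene with the largest decrease in value, from 36.4, 40.2 and 31.6 RPKM in 393P_vector to 22.7, 27.2 and 30.1 RPKM in 393P_ZEB1 replicates 1 to 3. Its log2 fold change of -0.43 (SE 0.15) also missed the threshold (edgeR adjusted p = 0.0538), and the median of its chromosome 6 was -0.36. Arf3 was at 70.8, 77.5 and 62.3 RPKM in 393P_vector and at 62.5, 64.4 and 63.5 RPKM in 393P_ZEB1 replicates 1 to 3, a log2 fold change of -0.15 with overlapping groups that was 0.20 with chromosome scaling (median of chromosome 15, -0.33). With all samples, the DESeq2 Wald test called Arf1 and Arf5 (adjusted p = 0.0423 and 0.0308), and limma voom with sample weights called Arf1, Arf3 and Arf5 (adjusted p = 0.00399, 0.0333 and 0.00242). All 3 of these genes passed edgeR's test without 393P_vector replicate 3. The log2 fold changes were then 0.27 for Arf1, -0.23 for Arf3 and -0.52 for Arf5 (edgeR adjusted p = 0.0332, 0.0272 and 0.00459).

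For the remaining ARF genes the groups overlapped. Arf4, the most abundant member, was at 107, 105 and 138 RPKM in 393P_vector replicates 1 to 3 and at 156, 120 and 111 RPKM in 393P_ZEB1 replicates 1 to 3. Arf2 was at 24.4, 25.3 and 19.8 RPKM in 393P_vector and at 24.3, 23.5 and 22.4 RPKM in 393P_ZEB1 replicates 1 to 3. Arf6 was at 42.5, 37.2 and 51.5 RPKM in 393P_vector and at 47.0, 44.7 and 37.5 RPKM in 393P_ZEB1 replicates 1 to 3. The 95% confidence intervals of the log2 fold change were -0.25 to 0.53 for Arf4, -0.27 to 0.30 for Arf2 and -0.37 to 0.32 for Arf6.

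Among the ARL GTPases, Arl13b and Arl6, both known for roles in cilia, were higher. Arl13b marks the ciliary membrane and activates ARL3, and it is mutated in the ciliopathy Joubert syndrome. Its level was 6.06, 6.22 and 6.32 RPKM in 393P_vector and 11.83, 11.03 and 12.04 RPKM in 393P_ZEB1 replicates 1 to 3. No vector sample came near a ZEB1 sample, and the log2 fold change of 0.91 (SE 0.10, edgeR adjusted p = 0.00035) held in every fit that left out a sample. Arl6, also called BBS3, recruits the Bardet-Biedl coat complex, the BBSome, to membranes. Arl6 was at 5.35, 6.08 and 8.02 RPKM in 393P_vector and at 9.33, 10.5 and 8.91 RPKM in 393P_ZEB1 replicates 1 to 3. The increase, 0.56 on the log2 scale (SE 0.18), passed the test (edgeR adjusted p = 0.0408). Both genes lie on chromosome 16, with a median of 0.25. When each chromosome was scaled to its own genes, Arl13b changed by 0.63 (edgeR adjusted p = 0.00235) and Arl6 by 0.28 (edgeR adjusted p = 0.259). With samples left out in turn, Arl6 passed only without 393P_vector replicate 3 (0.74, edgeR adjusted p = 0.000707) and was between 0.44 and 0.62 in the other fits (edgeR adjusted p between 0.0807 and 0.138). Arl3, the ciliary partner of Arl13b that releases lipid-modified cargo, showed no detectable difference, with a log2 fold change of 0.03 (95% confidence interval -0.25 to 0.31).

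Arl5b, which tethers endosome-derived vesicles at the trans-Golgi, rose from 8.89, 6.71 and 10.6 RPKM in 393P_vector to 18.2, 13.9 and 13.6 RPKM in 393P_ZEB1 replicates 1 to 3. The log2 fold change was 0.80 (SE 0.20, edgeR adjusted p = 0.0152), and with samples left out in turn it missed the threshold without 393P_ZEB1 replicate 1 (0.66, edgeR adjusted p = 0.0636). Its paralog Arl5a was more abundant, at 23.5 to 36.8 RPKM over the 6 samples, and overlapped between groups, with a log2 fold change of -0.08 (95% confidence interval -0.50 to 0.34). Arl10 was at 11.5, 14.8 and 6.93 RPKM in 393P_vector and at 15.6, 22.0 and 22.6 RPKM in 393P_ZEB1 replicates 1 to 3. Its groups were separated by 0.774 RPKM, and its increase of 0.86 (SE 0.28) lay close to the threshold (edgeR adjusted p = 0.0458). The call for Arl10 was kept without 393P_vector replicate 2 or 3 and lost without any of the other samples (edgeR adjusted p between 0.0592 and 0.135), as it was with chromosome scaling (0.63, edgeR adjusted p = 0.176).

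The ARL genes that fell were Arl4c and Arl14. Arl4c brings cytohesins to the plasma membrane and acts in epithelial tube formation, and it was the most abundant ARL gene. It dropped from 69.5, 70.7 and 75.1 RPKM in 393P_vector to 42.7, 43.0 and 46.1 RPKM in 393P_ZEB1 replicates 1 to 3. All 3 ZEB1 samples lay within 3.43 RPKM of each other, and the log2 fold change was -0.71 (SE 0.09, edgeR adjusted p = 0.000823), between -0.73 and -0.67 in the fits that left out a sample. The other Arl4 genes were much less abundant and did not pass, with log2 fold changes of -0.33 for Arl4a and 0.12 for Arl4d. Arl14, known from vesicle movement in antigen-presenting cells, was at 1.21, 1.29 and 2.01 RPKM in 393P_vector and at 0.733, 0.631 and 0.943 RPKM in 393P_ZEB1 replicates 1 to 3. The decrease of Arl14 was -0.97 (SE 0.28, edgeR adjusted p = 0.0281), and it was no longer called without 393P_ZEB1 replicate 1 (-0.93, edgeR adjusted p = 0.0964) or replicate 2 (-0.84, edgeR adjusted p = 0.106).

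The lysosomal pair Arl8a and Arl8b, which couple lysosomes to kinesins, differed in sign without passing the test. Arl8a was at 29.1, 31.1 and 37.5 RPKM in 393P_vector and at 38.0, 43.1 and 41.7 RPKM in 393P_ZEB1 replicates 1 to 3 (log2 fold change 0.33, edgeR adjusted p = 0.0779). Arl8b was at 36.8, 31.8 and 56.0 RPKM in 393P_vector and at 29.9, 31.6 and 26.0 RPKM in 393P_ZEB1 replicates 1 to 3 (log2 fold change -0.51, edgeR adjusted p = 0.0936, chromosome 6 median -0.36). In both, 393P_vector replicate 3 was the highest of its group. Without that replicate Arl8a passed (0.44, edgeR adjusted p = 0.00179) and Arl8b did not (-0.23, edgeR adjusted p = 0.0762), whereas without 393P_vector replicate 2 Arl8b passed (-0.67, edgeR adjusted p = 0.0359). Arl16 was at 3.47, 3.41 and 4.34 RPKM in 393P_vector and at 4.27, 5.11 and 4.24 RPKM in 393P_ZEB1 replicates 1 to 3. It overlapped between the groups, passed without 393P_vector replicate 3 (0.40, edgeR adjusted p = 0.0292), and was 0.28 with all samples and -0.01 with chromosome scaling. Limma voom with sample weights called Arl8a and Arl16 higher and Arl8b lower with all samples (adjusted p = 0.000289, 0.00992 and 0.0353). The 7 further ARL genes that did not pass, Arl1, Arl2, Arl3, Arl4a, Arl4d, Arl5a and Arl15, had log2 fold changes between -0.33 and 0.12. Of these, Arl15 was called lower with chromosome scaling (-0.52, edgeR adjusted p = 0.035) and Arl4a by limma voom with sample weights (adjusted p = 0.00821).

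The exchange factors changed in both directions, and their summed level was alike in the groups, between 132 and 147 RPKM in 393P_vector and between 131 and 134 RPKM in 393P_ZEB1 samples. Arfgef1 and Arfgef2 (BIG1 and BIG2) load class I ARF proteins at the trans-Golgi, and Gbf1 does so at the early Golgi. Arfgef1 fell from 34.5, 32.7 and 39.6 RPKM in 393P_vector to 28.4, 25.0 and 25.9 RPKM in 393P_ZEB1 replicates 1 to 3. The log2 fold change of -0.43 (SE 0.11, edgeR adjusted p = 0.0201) was lost without 393P_vector replicate 1 (-0.45, edgeR adjusted p = 0.0522), 393P_ZEB1 replicate 2 (-0.38, edgeR adjusted p = 0.0965) or 393P_ZEB1 replicate 3 (-0.40, edgeR adjusted p = 0.0879). Arfgef2 overlapped between the groups, with a log2 fold change of 0.10 (95% confidence interval -0.34 to 0.54). Gbf1 was at 34.6, 31.9 and 27.4 RPKM in 393P_vector and at 24.6, 27.2 and 25.5 RPKM in 393P_ZEB1 replicates 1 to 3. It did not pass in edgeR with all samples (-0.28, edgeR adjusted p = 0.0951), and passed without 393P_vector replicate 3 (-0.37, edgeR adjusted p = 0.00283) and with limma voom and sample weights (-0.36, adjusted p = 0.00135).

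Cytohesins are exchange factors that bind phosphoinositides through a PH domain and act at the cell surface. Of the 4 genes Cyth1 alone was called, at 4.20, 4.23 and 3.79 RPKM in 393P_vector and 4.89, 5.21 and 5.97 RPKM in 393P_ZEB1 replicates 1 to 3. This change of 0.40 (SE 0.13, edgeR adjusted p = 0.0467) was 0.12 with chromosome scaling (edgeR adjusted p = 0.50), chromosome 11 having a median of 0.27. It was also lost in each fit without a sample other than 393P_vector replicate 3 (between 0.32 and 0.46, edgeR adjusted p between 0.0603 and 0.166). Cyth2 and Cyth3, the more abundant cytohesins at averages of 17.4 to 21.3 RPKM per group, had log2 fold changes of 0.02 and 0.26, and Cyth4 had -0.25, none of which passed.

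Psd (EFA6) and Iqsec (BRAG) genes encode exchange factors with a preference for ARF6. Psd3 rose from 0.817, 0.896 and 1.12 RPKM in 393P_vector to 1.65, 1.28 and 1.57 RPKM in 393P_ZEB1 replicates 1 to 3 (log2 fold change 0.67, SE 0.17, edgeR adjusted p = 0.0181). Psd and Psd4 went the other way. Psd4 fell from 2.23, 1.99 and 1.28 RPKM to 1.08, 1.07 and 1.23 RPKM (-0.70, SE 0.22, edgeR adjusted p = 0.04), and its groups were only 0.051 RPKM apart, with 393P_vector replicate 3 next to the ZEB1 samples. Psd was low throughout, at 0.373, 0.517 and 0.220 RPKM in 393P_vector and 0.188, 0.199 and 0.156 RPKM in 393P_ZEB1 replicates 1 to 3 (-1.02, SE 0.33, edgeR adjusted p = 0.0458). Its calls are uncertain, as 6.49% of its 50-base words occur on the opposite strand of Nfkb2, whose strand the counting may not have separated, and chromosome scaling gave an edgeR adjusted p of 0.0599. Psd and Psd4 passed only without 393P_vector replicate 3 among the fits that left out a sample (-1.30 and -0.91, edgeR adjusted p = 0.00148 and 0.000234). In the other fits Psd was between -1.09 and -0.70 (edgeR adjusted p between 0.0928 and 0.145) and Psd4 between -0.76 and -0.53 (edgeR adjusted p between 0.0873 and 0.129). Psd3 passed without 393P_vector replicate 3 (0.81) or 393P_ZEB1 replicate 2 (0.78), and missed in the others (between 0.58 and 0.65, edgeR adjusted p between 0.0512 and 0.0714).

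Iqsec2 rose from 2.00, 1.94 and 1.46 RPKM in 393P_vector to 2.61, 2.67 and 2.66 RPKM in 393P_ZEB1 replicates 1 to 3. The 3 ZEB1 samples were nearly equal, and the log2 fold change was 0.56 (SE 0.15, edgeR adjusted p = 0.0232). Without 393P_ZEB1 replicate 1, 2 or 3 the estimates were 0.57, 0.56 and 0.57, and the call was lost (edgeR adjusted p = 0.0663, 0.0746 and 0.0723). Iqsec1, the most abundant of the family at 8.20 to 8.97 RPKM, had a narrow interval around no change (log2 fold change -0.05, 95% confidence interval -0.27 to 0.17).

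Of the 4 roles, the GAPs alone had a summed level that did not overlap between the groups. The sum was 297, 310 and 236 RPKM in 393P_vector replicates 1 to 3 and 406, 414 and 428.7 RPKM in 393P_ZEB1 replicates 1 to 3, while the sum over ARL genes overlapped, between 323 and 385 RPKM and between 315 and 331 RPKM. Most of that gap was Arap3. It took 2.88%, 2.78% and 2.42% of the GAP sum in 393P_vector and 21.5%, 22.4% and 22.4% in 393P_ZEB1 replicates 1 to 3. Git1 took the largest share in 393P_vector cells, between 24.8% and 25.1%, and between 18.9% and 19.5% in 393P_ZEB1 cells.

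The ARAP proteins are ARF GAPs that respond to phosphoinositides made by PI3-kinase. All 3 genes rose. Arap3, which acts on ARF6, went from 8.55, 8.62 and 5.70 RPKM in 393P_vector to 87.3, 92.7 and 96.1 RPKM in 393P_ZEB1 replicates 1 to 3. The lowest ZEB1 sample was thus 10.1 times the highest vector sample, and the log2 fold change was 3.59 (SE 0.18, edgeR adjusted p = 5.96e-06). Arap3 lies on chromosome 18 from 37972624 to 37998969 (GRCm38, minus strand), where the median over all tested genes was 0.64. With chromosome scaling the change was 2.92 (edgeR adjusted p = 1.29e-05). Arap3 is also a known gene of endothelial cells, and the endothelial markers Kdr, Cdh5 and Pecam1 summed to between 2.23 and 2.37 CPM in 393P_vector and between 0.486 and 0.77 CPM in 393P_ZEB1 samples. Most of that sum was Kdr, and Cdh5 was between 0.0361 and 0.102 CPM in 393P_vector and between 0.09 and 0.229 CPM in 393P_ZEB1 samples. Their part in the result was not tested.

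Arap2 was at 3.67, 3.14 and 4.04 RPKM in 393P_vector and at 8.42, 7.45 and 7.90 RPKM in 393P_ZEB1 replicates 1 to 3. The groups were well apart, with a log2 fold change of 1.13 (SE 0.13, edgeR adjusted p = 0.000352) that stayed between 1.04 and 1.22 with any sample left out. Because 13.3% of the 50-base words of Arap2 are shared with the gene model Gm336, part of its count is uncertain. Arap1 was at 12, 12.8 and 6.62 RPKM in 393P_vector and at 17.8, 17.5 and 20.1 RPKM in 393P_ZEB1 replicates 1 to 3, with 393P_vector replicate 3 the lowest sample. The log2 fold change of Arap1 was 0.82 (SE 0.23, edgeR adjusted p = 0.0272) and 0.58 without 393P_vector replicate 3 (edgeR adjusted p = 0.000303). Without 393P_ZEB1 replicate 1, 2 or 3 it was 0.85, 0.87 and 0.77 and did not pass (edgeR adjusted p = 0.0782, 0.0642 and 0.0871).

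**Figure D3:**
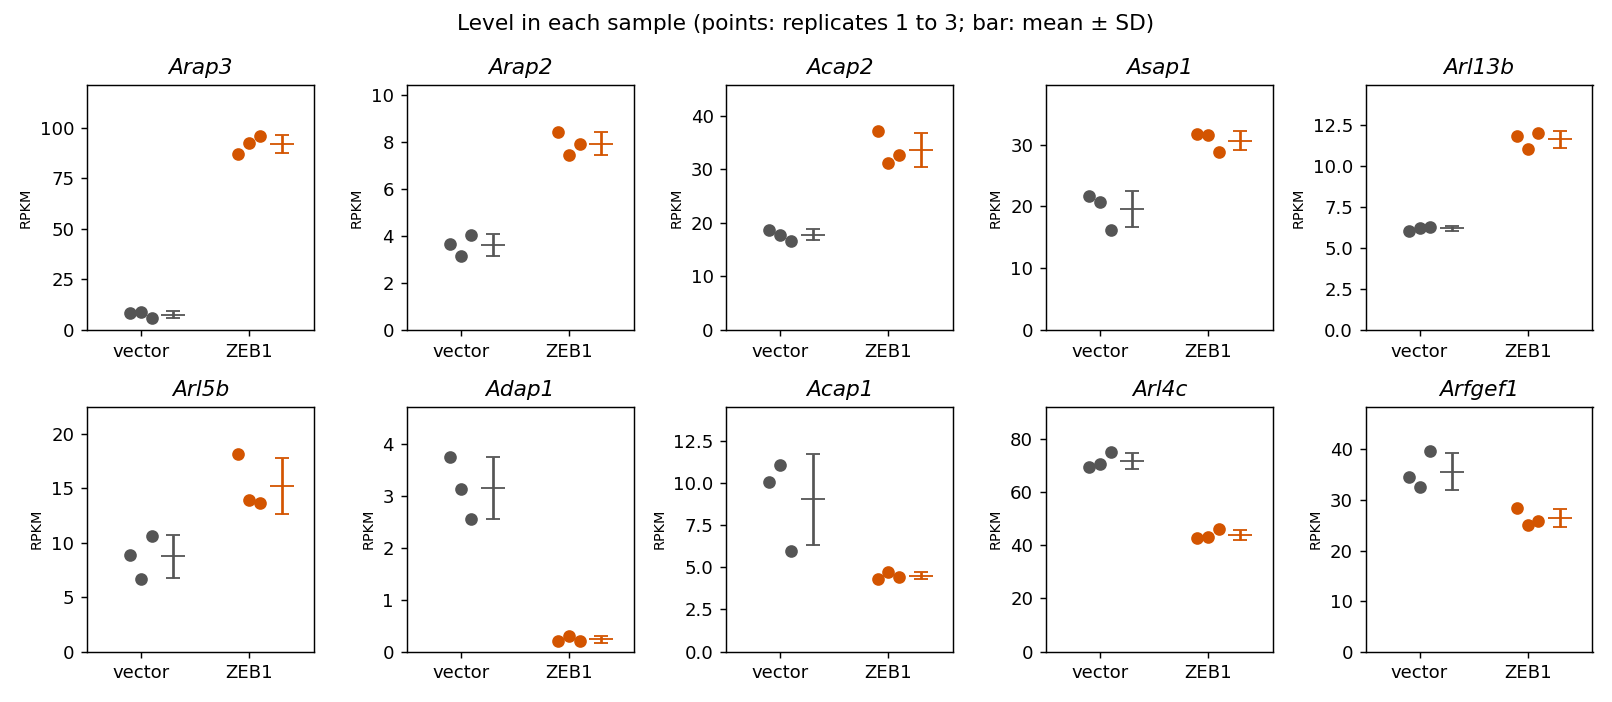
Level in RPKM (y axis, from 0) of 10 called members in each 393P_vector and 393P_ZEB1 sample (x axis), with points for replicates 1 to 3 and bars for the mean ± SD. The 2 groups are separate in every panel, most widely for Arap3 and Adap1, and by the smallest ratio for Arfgef1, whose lowest vector sample, 32.7 RPKM, lies above a ZEB1 maximum of 28.4 RPKM.

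The ADAP genes fell. Adap1 (centaurin-alpha 1) binds phosphoinositides and acts on ARF6, and it dropped from 3.75, 3.14 and 2.56 RPKM in 393P_vector to 0.203, 0.309 and 0.199 RPKM in 393P_ZEB1 replicates 1 to 3. The highest ZEB1 sample was 8.29-fold below the lowest vector sample, and the log2 fold change was -3.73 (SE 0.26, edgeR adjusted p = 2.45e-05), between -3.95 and -3.58 with any sample left out. No 50-base word of Adap1 or Arap3 occurs in another gene model. Adap2 was low, at 0.290, 0.300 and 0.311 RPKM in 393P_vector and 0.118, 0.193 and 0.165 RPKM in 393P_ZEB1 replicates 1 to 3. Its decrease of -0.91 (SE 0.28, edgeR adjusted p = 0.0354) failed in all 6 fits that left out a sample, where it was between -1.07 and -0.74 (edgeR adjusted p between 0.0578 and 0.108). In addition, 4.03% of the 50-base words of Adap2 occur on the opposite strand of Adap2os.

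Of the ACAP genes, which act on ARF6 along endocytic routes, Acap2 rose and Acap1 fell. Acap2 went from 18.8, 17.8 and 16.7 RPKM in 393P_vector to 37.1, 31.1 and 32.7 RPKM in 393P_ZEB1 replicates 1 to 3. Its log2 fold change of 0.92 (SE 0.11, edgeR adjusted p = 0.000422) was 0.64 with chromosome scaling (edgeR adjusted p = 0.0024), chromosome 16 having a median of 0.25. Acap1 fell from 10.05, 11.05 and 5.96 RPKM to 4.31, 4.72 and 4.43 RPKM, with a log2 fold change of -1.01 (SE 0.23, edgeR adjusted p = 0.0107). The call of Acap1 was lost without 393P_ZEB1 replicate 1 (-0.97, edgeR adjusted p = 0.0536). Chromosome 11, which carries Acap1 and Adap2, had a positive median of 0.27, against which both fell. Acap3 overlapped between the groups, at 13.1, 13.9 and 8.38 RPKM in 393P_vector and 10.4, 10.1 and 10.2 RPKM in 393P_ZEB1 replicates 1 to 3 (-0.20, edgeR adjusted p = 0.433). Without 393P_vector replicate 3 it was -0.40 (edgeR adjusted p = 0.00198).

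Asap1, a GAP of focal adhesions and invadopodia, rose from 21.7, 20.8 and 16.2 RPKM in 393P_vector to 31.7, 31.5 and 28.8 RPKM in 393P_ZEB1 replicates 1 to 3. The log2 fold change was 0.65 (SE 0.13, edgeR adjusted p = 0.00674) on a chromosome, 15, whose median was -0.33, and 0.99 with chromosome scaling (edgeR adjusted p = 0.000463). Its relatives Asap2 and Asap3 overlapped between groups, with log2 fold changes of 0.01 (95% confidence interval -0.63 to 0.65) and 0.09 (-0.45 to 0.63). The Golgi GAPs Arfgap1 and Arfgap3 had 0.17 and 0.01, and Agap1 to Agap3 had 0.15, -0.33 and 0.27, none of them called. Arfgap2 was at 20.4, 23.7 and 11.5 RPKM in 393P_vector and at 17.5, 16.7 and 18.1 RPKM in 393P_ZEB1 replicates 1 to 3. 393P_vector replicate 3 set its result, which was -0.09 with all samples (edgeR adjusted p = 0.803) and -0.34 without that replicate (edgeR adjusted p = 0.00869). Its counts are also uncertain, since 20.1% of its 50-base words occur in another gene model on the same strand and 41.1% on the opposite strand.

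**Figure D4:**
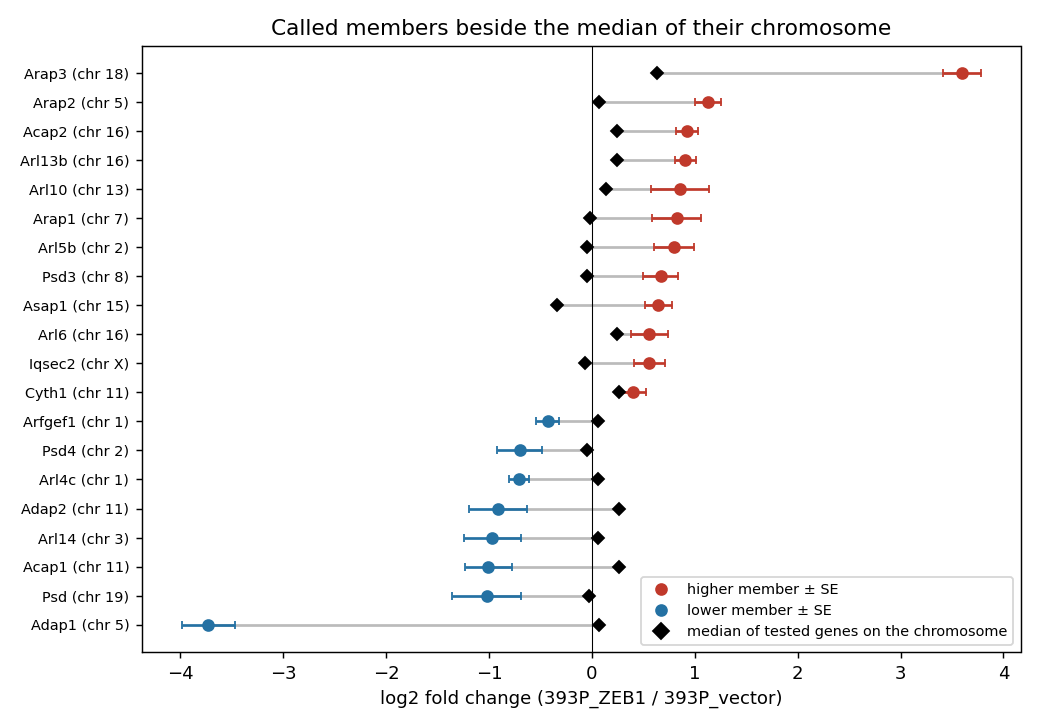
Log2 fold change with its standard error (x axis) of the 20 called members (y axis), coloured by direction, beside the median of all tested genes on the same chromosome (black diamonds). Each member lies beyond its chromosome's median in the direction of its call, by the smallest margin for Cyth1, 0.40 against 0.27.

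ZEB1 binds E-boxes of the form CAGGTG and is known chiefly as a repressor through them. On the opposite strand this motif reads CACCTG. RefSeq promoter windows (GRCm38.p6, from 250 bases before to 50 bases after a start site) were available for 48 members, 45 of them tested, and 8 of the 45, 17.8%, held the motif on either strand, against 21.1% of all tested genes with a window. By call, it was in 3 of 9 members that rose (Acap2, Arap2 and Iqsec2), 2 of 6 that fell (Adap1 and Arl14) and 3 of 30 that did not pass (Arf2, Arl4a and Cyth4). Over all genes the shares were 21.4%, 26.8% and 19.4%. The windows of Adap1 and Arap2 are shown because these GAPs changed at least 2-fold in opposite directions and both hold the motif, once and 3 times. Adap1 is at chr5:139325415-139325714 and Arap2 at chr5:62766128-62766427, both on the minus strand and written 5′ to 3′ with the motif in capitals.
Adap1: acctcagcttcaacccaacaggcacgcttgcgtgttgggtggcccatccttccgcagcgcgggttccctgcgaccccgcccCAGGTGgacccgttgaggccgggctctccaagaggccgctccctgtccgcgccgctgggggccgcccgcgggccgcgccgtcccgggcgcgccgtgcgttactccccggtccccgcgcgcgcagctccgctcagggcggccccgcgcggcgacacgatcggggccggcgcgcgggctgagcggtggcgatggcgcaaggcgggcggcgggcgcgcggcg
Arap2: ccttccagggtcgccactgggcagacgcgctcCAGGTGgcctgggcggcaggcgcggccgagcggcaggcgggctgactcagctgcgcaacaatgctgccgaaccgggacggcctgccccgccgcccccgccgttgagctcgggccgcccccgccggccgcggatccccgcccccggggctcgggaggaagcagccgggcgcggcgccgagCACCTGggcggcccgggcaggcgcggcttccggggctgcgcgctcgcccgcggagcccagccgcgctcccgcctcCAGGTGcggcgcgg
With the start site as base 0, the motif starts at base -169 in Adap1 and at -218, -39 and 36 in Arap2. A match is a description of these letters and shows no binding.

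MicroRNAs of the miR-200 family target Zeb1 and are repressed by it, so their sites in the members were counted. The family has 2 seeds (bases 2 to 8, in capitals), which differ by 1 base. The mature sequences from RefSeq are shown because the sites below pair with them.
miR-200b-3p: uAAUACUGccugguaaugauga
miR-200c-3p: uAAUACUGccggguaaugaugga
miR-429-3p: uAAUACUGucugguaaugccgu
miR-200a-3p: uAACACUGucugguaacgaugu
miR-141-3p: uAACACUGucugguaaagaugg
The levels of the mature microRNAs were not measured here. A site for either seed, CAGTATT for miR-200b, miR-200c and miR-429 or CAGTGTT for miR-200a and miR-141, was found in 18 of 53 tested members when 1 3′ UTR per gene was scanned, that of its longest coding transcript in GENCODE M21 (GRCm38). This was 34.0%, against 30.3% of 12038 tested genes. Of the members that rose 6 of 12 held one, Acap2, Arl13b, Arl5b, Asap1, Cyth1 and Psd3, which is 50.0% against 35.5% of all genes that rose. The members that rose also had longer 3′ UTRs, with a median of 1837 bases against 1485 for all genes that rose, and the part of length in these shares was not tested. Among members that fell, Arl4c and Psd4 held one, 2 of 8 or 25.0%, against 26.1% of all genes that fell. All sites of Psd4 lie past the end of the feature counted here (chromosome 2, 24408729), the first at 24408883. None of the 5 called members that differed at least 2-fold, Arap3, Arap2, Adap1, Acap1 and Psd, held one.

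Sites of 4 members are shown, 3 that rose and 1 that fell, as 28 bases of the transcript with the seed match in capitals. They lie in the 3′ UTR of Asap1 (minus strand, match at chr15:64089262-64089268), Acap2 (minus strand, chr16:31094239-31094245), Arl5b (plus strand, chr2:15077715-15077721) and Arl4c (minus strand, chr1:88699759-88699765). Those of Asap1, Acap2 and Arl4c pair with the seed of miR-200b, miR-200c and miR-429, and that of Arl5b with the seed of miR-200a and miR-141.
Asap1: ctgccttcacCAGTATTagggtaacctc
Acap2: tggcatgtggCAGTATTccggtccacgc
Arl5b: acttactgggCAGTGTTaatggttccca
Arl4c: tatctggtttCAGTATTttactcaaaat
Asap1 and Arl5b thus held sites and rose, whereas Arl4c held a site and fell, and Arl5a, which held sites for both seeds, overlapped between the groups. Counted per member, Arl5b and the uncalled Agap1 held 5 sites each, Psd4 and the uncalled Arl4a held 4, Asap1 held 3 and Acap2 held 2. These numbers cover the GENCODE 3′ UTR. Some sites of Arl5b, Agap1 and Asap1 and all of Psd4 lie outside the features whose reads were counted.

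**Figure D5:**
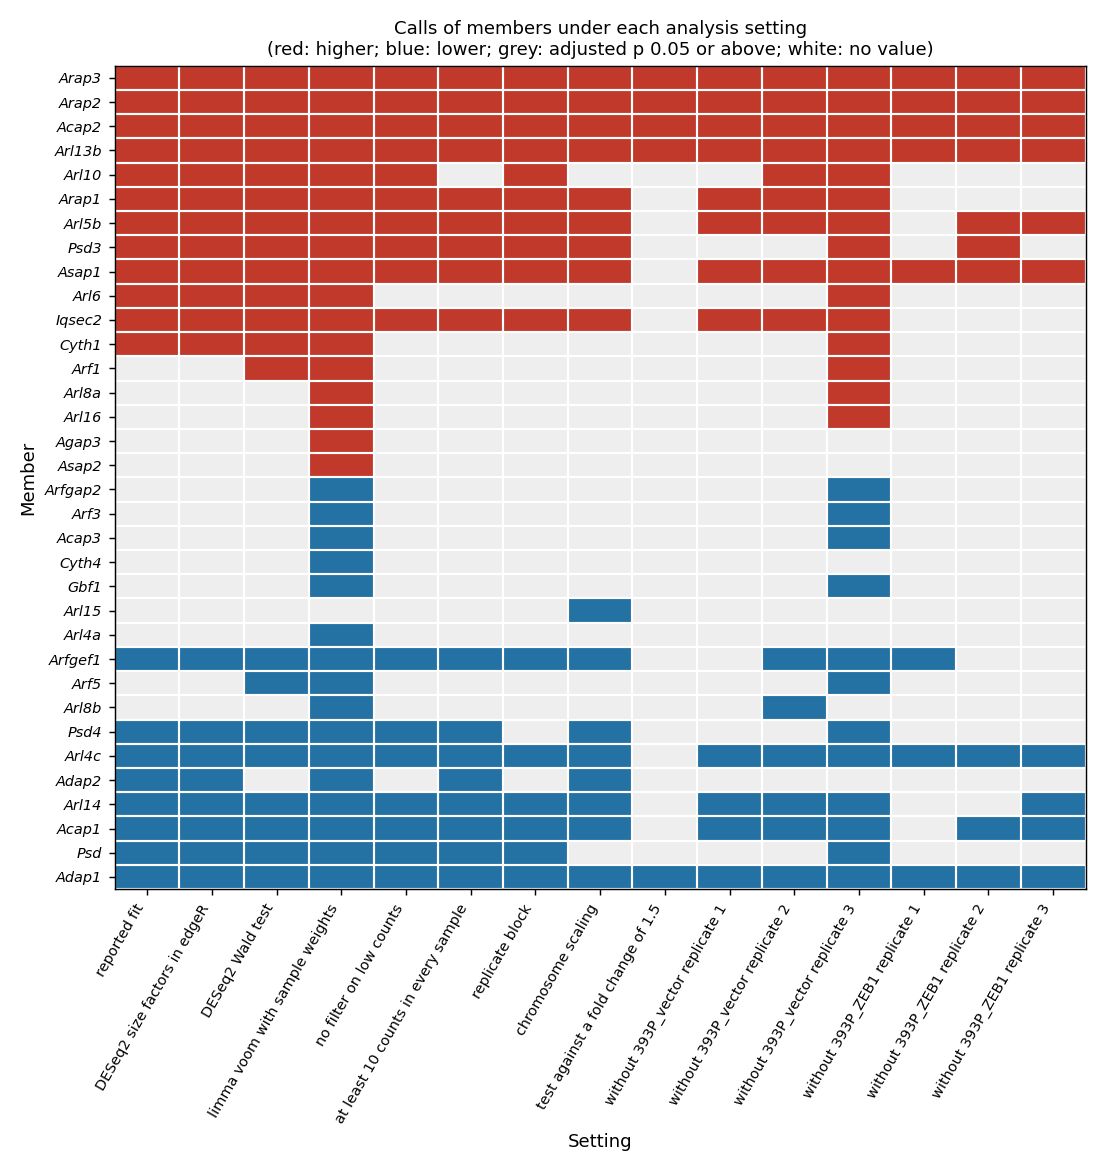
Calls of the 34 members that passed in at least 1 of 15 settings (y axis, ordered by log2 fold change), with 1 column per analysis setting (x axis) and colour for higher, lower or not passed. Arap3, Arap2, Acap2, Arl13b and Adap1 keep their call in every column, and the column without 393P_vector replicate 3 holds more calls than the reported fit.

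Further genes of the pathway were counted in a list of 64 effectors, cofactors and additional regulators, chosen by known function. All 64 were tested, 8 rose (12.5%) and 7 fell (10.9%), against 18.3% and 19.3% of all genes, with a median log2 fold change of 0.07. Without 393P_vector replicate 3 these counts were 21 and 15, while 3700 and 3776 of all genes were called, and without 393P_ZEB1 replicate 1 they were 4 and 3, while 1872 and 1841 of all genes were called. The largest decrease was in Arfgef3 (listed as D10Bwg1379e), a relative of Arfgef1 and Arfgef2, from 8.23, 6.20 and 4.72 CPM in 393P_vector to 0.318, 0.144 and 0.246 CPM in 393P_ZEB1 replicates 1 to 3. Its log2 fold change was -4.75 (SE 0.34), larger in size than that of any member. Rab11fip4, which binds RAB11 and ARF proteins on recycling endosomes, fell from 1.15, 1.43 and 0.927 CPM to 0.0935, 0.054 and 0.147 CPM, a change of -3.52 (SE 0.38). Mapk8ip3, an ARF6-binding kinesin adapter, fell by 0.98 on the log2 scale on chromosome 17, whose median was -0.43.

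The largest increases in the list were in Unc119, Tbce and Bbs2. Unc119, whose lipid-modified cargo is released by ARL3, was at 21.6, 21.8 and 13.3 CPM in 393P_vector and at 53.6, 49.8 and 51.8 CPM in 393P_ZEB1 replicates 1 to 3 (log2 fold change 1.46, SE 0.20). Unc119 lies, as does Tbcd, on chromosome 11, whose median was 0.27. The tubulin cofactors Tbce and Tbcd, the latter a partner of ARL2, rose by 1.10 and 0.85 on the log2 scale, while Arl2 itself was at 50.8, 57.1 and 62.2 RPKM in 393P_vector and 38.0, 51.4 and 50.0 RPKM in 393P_ZEB1 replicates 1 to 3 and did not pass (-0.29, 95% confidence interval -0.64 to 0.06). Bbs2 and Bbs7, of the 7 BBSome genes listed, rose by 1.00 and 0.56. The ZEB1 and vector samples did not overlap for any of these 5 genes that rose, which were taken from those past the threshold. The same held for all 20 called members and for 52.8% of all genes, so it adds no support to these calls.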

How the data were processed

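Total RNA (2 ug per sample) of 6 samples was sequenced on the SOLiD platform, and samples were grouped by the condition in their titles. The authors deposited, per sample, unnormalized counts of reads on 24214 RefSeq features and an RPKM for each. The aligner, the counting program, its handling of strand and the genome build are not given in the sources used here. The coordinates were those of GRCm38, as 99.12% of 20878 matched symbols overlapped their RefSeq GRCm38.p6 interval. Deposited RPKM values served as a check only. RPKM was computed from the counts, the deposited exon length and TMM library sizes.

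Counts were tested with edgeR 4.0.16 in R 4.3.3 (filterByExpr with a minimum count of 10, TMM, robust quasi-likelihood fit with condition as its term). SE, confidence intervals (95%) and Benjamini-Hochberg adjusted p come from this fit over 13892 genes. As the test gives no SE, it was taken as the size of the log2 fold change over the square root of the F statistic. Intervals used that SE and the t distribution. The biological coefficient of variation was 0.184. The script was tested on simulated counts. Alternatives were DESeq2 1.42.0 size factors and Wald test, limma 3.58.1 voom with sample weights, both filters on low counts, a replicate block, scaling of each chromosome to its own genes, a test against a fold change of 1.5, and leaving out each sample.

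Values were printed for every sample for the ARF genes, all called members, the 5 most abundant members and those whose call changed when a sample was left out. The members and lists were chosen with earlier results of these data known. Shared reads were estimated from 50-base words of GENCODE M21 transcripts, and these shares are given for some members only. Floors and counts cover counting error only. Arap3 and Psd2 promoters were not used here.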

Additional observations from a re-analysis of the deposited data

How the results depend on the processing

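Every called member kept its sign under all 14 alternatives, and 5 of the 20 called members (Arap3, Arap2, Acap2, Arl13b and Adap1) passed in each of them. Neither count was made over all called genes. Chromosome scaling ended 4 calls (Arl10, Arl6, Cyth1 and Psd) and called Arl15 lower. Limma voom with sample weights also called Arl4a and Cyth4 lower and Agap3 and Asap2 higher, none of which the reported fit called. The members higher and lower, 12 and 8 as reported, were 17 and 16 with limma voom and sample weights, 4 and 1 in the test against a fold change of 1.5, and between 5 and 15 and between 3 and 12 with each sample left out. Of the further pathway genes, 8 higher and 7 lower as reported, the counts were 21 and 14 with limma voom, 3 and 2 against a fold change of 1.5, and between 4 and 21 and between 3 and 15 with a sample left out. Over all genes, limma voom called 3971 higher and 4100 lower, the test against a fold change of 1.5 called 1081 and 1118, and leaving out samples gave between 1861 and 3700 and between 1784 and 3776. The cause of these differences was not tested.

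The labels number the replicates alike but do not say whether samples of the same number were handled together. Their deviations from the group means correlated with r = 0.171, -0.11 and -0.0255, and 393P_vector replicates 2 and 3 correlated best with another number. With the replicate block, 10 members were higher and 6 were lower, and Arl6, Cyth1, Psd4 and Adap2 lost their call. With 3 samples a group, a spread such as that of 393P_vector replicate 3 limits what can be called, and the 6 members with at most 14 counts in any sample were not tested.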
